A study of Mus musculus with 36 samples.

Results

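*Pou3f1*, *Otx2*, *Fgf5*, *Sox3*, *Foxd3* and *Zic2* are genes of the formative epiblast, the stage that follows naïve pluripotency. They were followed through a count table of mouse embryonic stem cells (mESCs). The 6 genes were chosen by name, out of 49671 genes in the table. The cells, labelled 129m wt, grew on StemBond hydrogels (polyacrylamide with tethered matrix protein) that were either soft or stiff, or on tissue culture plastic. RNA from 36 libraries in 11 groups was sequenced, with 3 libraries per group except for 6 on soft hydrogels in serum + PD03. On both hydrogels serum + LIF was sampled at 24 h, and at 48 h the serum medium was sampled plain, with LIF, with PD03 and with both agents. Plastic was sampled at 48 h in serum + LIF. LIF, which acts through STAT3, supports self-renewal of mESCs, and PD03 (PD0325901) inhibits MEK, the kinase that activates ERK. Every group contained serum, so no group lacked serum signals. The study's methods name both E14 and a Rex1 reporter line of mESCs without saying which was sequenced here, and no label ties a library to its own culture, so p-values measure the spread between libraries.

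As mESCs leave the naïve state, autocrine FGF4 signals through ERK, the naïve network declines, and formative genes are induced before lineage genes. Among the factors described here, OTX2 is known to redirect OCT4 to new enhancers, and *Pou3f1* encodes the POU factor OCT6. FGF5 is the secreted ligand most used as a marker of the early post-implantation epiblast. SOX3, FOXD3 and ZIC2 are transcription factors of pluripotent cells as well as of neural or neural crest tissue, and FOXD3 and ZIC2 are already made in naïve cells.

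The libraries held 10405696 to 26635239 counts. The labels give 3 sequencing pools. The first held every 24 h and plastic library and 1 stiff 48 h library in serum + LIF, the second the other stiff 48 h libraries and 2 of 6 soft ones in serum + PD03, and the third the remaining soft 48 h libraries. The substrates were thus sequenced together at 24 h, whereas at 48 h substrate and pool cannot be told apart in most groups. Comparisons of PD03 or LIF on the same substrate were made mostly within a pool. The pluripotency markers *Pou5f1*, *Sox2*, *Sall4*, *Nanog*, *Zfp42* and *Utf1* were detected in every library, with a summed level of 2923 to 4098 CPM (counts scaled to library size). Markers of other cells were present at lower summed levels, with 45.02 to 139.5 CPM for primitive endoderm, 54.7 to 207 for trophoblast, 72.3 to 107 for neural ectoderm, 22.05 to 88.5 for fibroblasts, 9.94 to 47.9 for neural crest and 3.24 to 9.40 for primitive streak. Sums cover the markers that passed a filter on low counts. These were 3 of 5 for neural ectoderm, 5 of 6 for fibroblasts, and 4 of 5 each for neural crest and primitive streak.

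All 6 genes passed the filter on low counts and were tested with the other 17701 genes in the same fit of 17702 (edgeR quasi-likelihood, Benjamini-Hochberg adjusted p, threshold 0.05). "Called" below means past that threshold. *Foxd3* (ENSMUSG00000067261, GRCm38, chromosome 4, 99656299 to 99658622, plus strand) and *Sox3* (ENSMUSG00000045179, chromosome X, 60891366 to 60893430, minus strand) are genes of 1 exon, as is *Pou3f1* (ENSMUSG00000090125, chromosome 4, 124656807 to 124660655, plus strand). *Otx2* (ENSMUSG00000021848) lies on chromosome 14 at 48657677 to 48673819 on the minus strand and *Zic2* (ENSMUSG00000061524) on the same chromosome at 122475435 to 122479852 on the plus strand. *Fgf5* (ENSMUSG00000029337) lies on chromosome 5 at 98254184 to 98277030 on the plus strand. Counts per library were 61 to 2208 for *Pou3f1*, 197 to 1052 for *Otx2*, 522 to 1384 for *Foxd3* and 531 to 1531 for *Zic2*. They were lower for *Sox3*, at 4 to 215, and for *Fgf5*, at 0 to 111 with 0 in 3 libraries. The strand setting of the counting was not stated, so reads of overlapping antisense genes cannot be separated. The counts assigned to such genes cannot show how rare these reads were, as reads in shared exons may not be assigned to them. *Gm2164*, antisense to *Pou3f1*, had 0 counts in all libraries, and *Otx2os1*, which overlaps *Otx2*, had 0 to 5.

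Across the 11 groups, *Pou3f1*, *Fgf5* and *Sox3* were lower with PD03 and *Otx2* and *Foxd3* higher, while *Zic2* overlapped (see the plot of CPM in every library). Levels of different genes were compared per kilobase of exon. In the 7 groups without PD03, *Foxd3* stood at 15.4 to 20.3, *Zic2* at 13.7 to 19.8 and *Pou3f1* at 8.74 to 21.1 CPM per kilobase. *Otx2* stood at 3.56 to 6.25, *Sox3* at 2.96 to 3.86 and *Fgf5* at 0.492 to 1.78. In the 4 groups with PD03, *Foxd3* and *Zic2* were the highest, at 22.02 to 27.2 and 18.3 to 23.4 CPM per kilobase. *Otx2* came next in all 4, at 7.97 to 10.6, then *Pou3f1*, at 1.02 to 1.35, followed by *Sox3* at 0.140 to 0.383 and *Fgf5* at 0.0249 to 0.0778. Per kilobase, *Otx2* was thus above *Pou3f1* in the 4 groups with PD03 and below it in the 7 without.

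**Figure D1:**
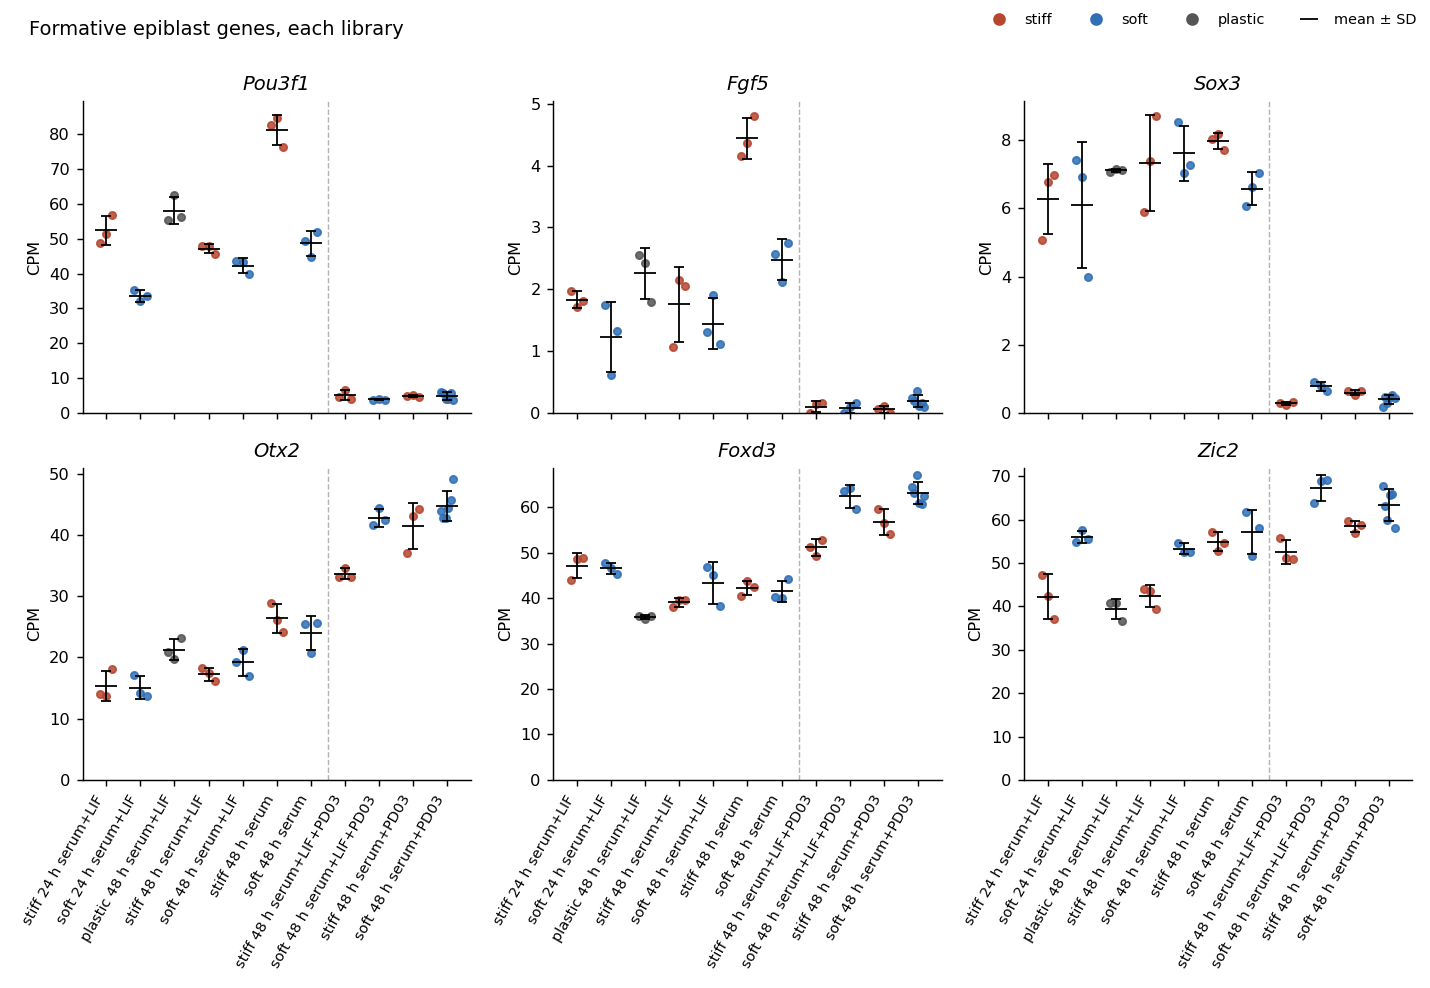
CPM (vertical axes, linear from 0) of the 6 genes in each of the 36 libraries (points), in 11 groups named by substrate, time and medium, with the mean and SD of each group in black. The dashed line separates the 7 groups without PD03 from the 4 with it: *Pou3f1*, *Fgf5* and *Sox3* (top) are lower to its right without overlap, and *Otx2* and *Foxd3* (bottom) are higher without overlap. The share of all genes that separate in this way was not counted.

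The ranges of the individual libraries show the same split. *Pou3f1* was at 32.04 to 84.5 CPM in the libraries without PD03 and at 3.79 to 6.74 with it. *Fgf5* was at 0.618 to 4.81 CPM without and 0 to 0.352 with PD03, and *Sox3* at 3.99 to 8.70 and 0.193 to 0.923 CPM. Conversely, *Otx2* was at 13.7 to 28.9 CPM without and 33.1 to 49.2 with PD03, and *Foxd3* at 35.4 to 48.9 and 49.3 to 67.2. For these 5 genes, no library with PD03 overlapped a library without it, whatever the substrate, time or LIF. The share of all genes that separate in this way was not counted. In single PD03 comparisons 54.4% to 57.5% of all genes passed the threshold, so the split is not shown to be particular to these genes. *Zic2*, at 36.7 to 61.7 CPM without and 50.9 to 69.3 with PD03, did overlap.

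In the order of the 11 group means, most neighbours did not differ beyond their spread. Of 10 neighbouring pairs, the libraries overlapped in 5 for *Pou3f1*, 6 for *Foxd3*, 7 for *Sox3*, 8 each for *Otx2* and *Fgf5*, and 9 for *Zic2*. Stiff hydrogels in serum were the highest group for *Pou3f1*, *Fgf5* and *Sox3*, at 81.1 ± 4.33, 4.44 ± 0.335 and 7.98 ± 0.237 CPM (mean ± SD, n = 3). For *Pou3f1* and *Fgf5* that group stood clear of the next one. For *Sox3* it overlapped soft hydrogels in serum + LIF, at 7.61 ± 0.801 CPM. *Otx2* and *Foxd3* were highest on soft hydrogels in serum + PD03, at 44.8 ± 2.43 and 63.2 ± 2.38 CPM (n = 6), and *Zic2* on soft hydrogels in serum + LIF + PD03, at 67.3 ± 3.02 CPM (n = 3). The highest group mean was 71.3 times the lowest for *Fgf5*, 27.7 times for *Sox3* and 20.6 times for *Pou3f1*, but only 2.98 times for *Otx2*, 1.76 times for *Foxd3* and 1.71 times for *Zic2*.

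The effect of blocking MEK was measured by adding PD03 to serum or to serum + LIF on each substrate at 48 h. All 6 genes were called on soft hydrogels in serum, where 57.5% of all genes were, 5 of 6 on stiff hydrogels in serum (background 55.8%), and 6 of 6 in serum + LIF on soft (54.4%) and on stiff hydrogels (56.2%). Since more than 50% of all tested genes were called, the counts themselves are not particular to these genes, and the sizes and directions are described instead. *Pou3f1*, *Fgf5* and *Sox3* fell in all 4 comparisons, *Otx2* and *Foxd3* rose in all 4, and *Zic2* rose in 3. In bulk RNA, fewer cells expressing a gene and less RNA per cell cannot be told apart.

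*Pou3f1* went from 82.5, 84.5 and 76.2 CPM in the 3 stiff serum libraries to 4.80, 5.20 and 4.75 with PD03. On soft hydrogels in serum it went from 49.2, 44.7 and 52.0 CPM to between 3.90 and 6.18 in 6 libraries, with a median of 4.93. In every PD03 library *Pou3f1* was thus below every library without it. The log2 fold changes were -4.03 ± 0.11 (SE) on stiff and -3.30 ± 0.09 on soft hydrogels in serum, with edgeR adjusted p of 1.25e-33 and 6.45e-34. In serum + LIF they were -3.19 ± 0.11 on stiff and -3.43 ± 0.12 on soft hydrogels, with edgeR adjusted p of 1.83e-29 and 2.05e-29. *Pou3f1* was therefore 9.13 to 16.4 times lower with PD03.

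*Fgf5* was close to the limit of detection under PD03. In stiff serum libraries it was at 4.15, 4.37 and 4.81 CPM, from 245 counts in all, and with PD03 at 0.0641, 0.123 and 0 CPM, from 4 counts. The library at 0 allows up to 0.196 CPM, at 3 counts. The ratio of these counts per depth was 60.9, with an exact 95% counting interval of 23.5 to 225 that covers counting error only. On soft hydrogels in serum, 150 counts became 21 over 6 libraries, a ratio of 12.5 (7.90 to 20.8). In serum + LIF the ratios were 16.7 (7.78 to 42.9) on stiff and 17.1 (6.97 to 54.3) on soft hydrogels, from 86 and 68 counts to 7 and 5. The edgeR adjusted p lay between 1.72e-14 and 2.03e-08. None of the 4 counting intervals reached below 6.97, and their width shows how few reads set the size of the fall.

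*Sox3*, the SOXB1 factor of the list, had log2 fold changes of -3.73 ± 0.24 on stiff and -4.03 ± 0.21 on soft hydrogels in serum, and of -4.63 ± 0.27 and -3.25 ± 0.23 in serum + LIF. In serum its stiff libraries went from 8.04, 8.18 and 7.72 CPM to 0.641, 0.532 and 0.642. In serum + LIF, the stiff libraries went from 5.90, 7.37 and 8.70 CPM to 0.298, 0.246 and 0.322, and the soft from 8.53, 7.05 and 7.26 CPM to 0.923, 0.797 and 0.654. The edgeR adjusted p was at most 1.16e-17 in the 4 comparisons, and the groups did not overlap.

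*Otx2* moved the other way. Its stiff serum libraries were at 28.9, 26.1 and 24.2 CPM, and those with PD03 at 37.1, 43.0 and 44.3. In serum + LIF on soft hydrogels, 19.3, 21.3 and 16.9 CPM became 41.6, 44.4 and 42.4. The log2 fold changes were 0.64 ± 0.09 and 0.90 ± 0.08 in serum on stiff and soft hydrogels, and 0.97 ± 0.10 and 1.16 ± 0.09 in serum + LIF, with edgeR adjusted p between 2.75e-15 and 2.16e-08. *Otx2* was therefore 1.56 to 2.23 times higher with PD03.

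*Foxd3* rose by less, with log2 fold changes of 0.43 ± 0.06 on stiff and 0.60 ± 0.05 on soft hydrogels in serum and 0.39 ± 0.06 and 0.53 ± 0.06 in serum + LIF, or 1.31 to 1.52 times. On soft hydrogels in serum its libraries went from 40.4, 40.1 and 44.3 CPM to between 60.8 and 67.2 CPM, with a median of 62.8. *Zic2* rose by 0.34 ± 0.07 on soft and 0.32 ± 0.07 on stiff hydrogels in serum + LIF, with edgeR adjusted p of 3.86e-05 and 0.000134. In serum its change on soft hydrogels was 0.15 ± 0.06 (edgeR adjusted p = 0.0256), with 61.7, 51.6 and 58.1 CPM without PD03 overlapping 58.1 to 67.8 CPM with it. This call was lost without soft serum library 2 (0.07, adjusted p = 0.369), soft serum library 3 (0.15, 0.056) or soft serum + PD03 library 1 (0.13, 0.0651). With sequencing pool as a term it held in 24 of the 45 assignments of libraries to pools that the labels allow, with changes between 0.11 and 0.20. On stiff hydrogels in serum *Zic2* changed by 0.09 ± 0.07, with an adjusted p of 0.304.

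**Figure D2:**
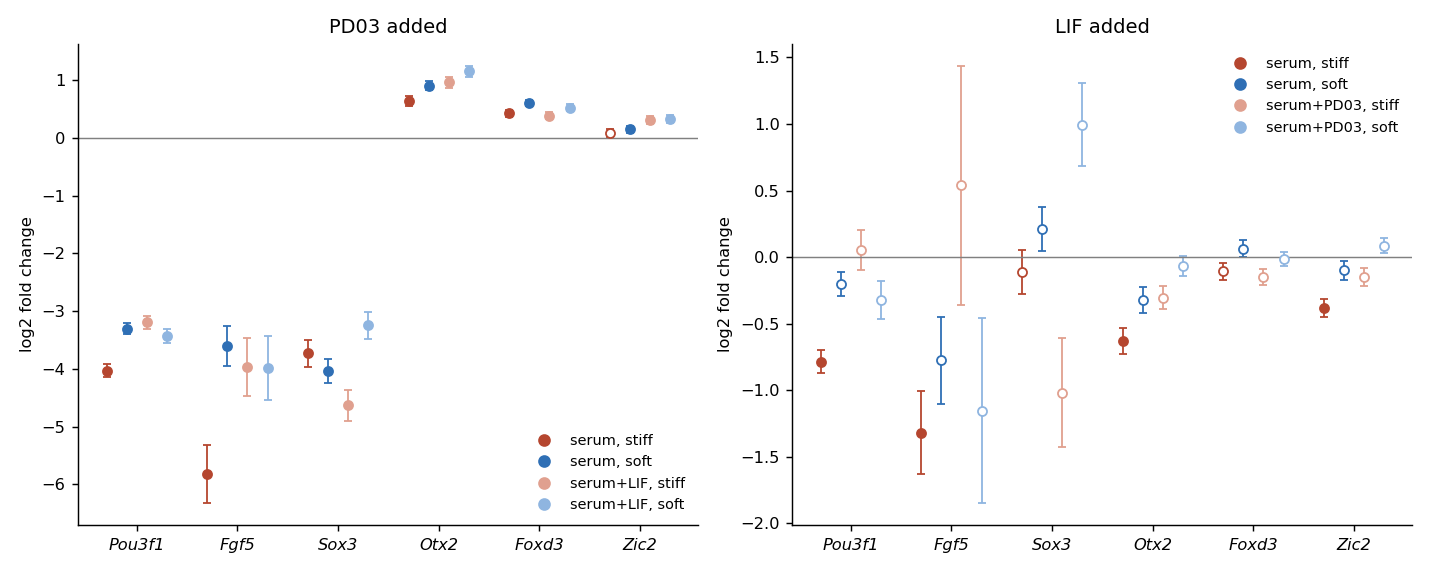
Log2 fold change (vertical axes) of the 6 genes on adding PD03 (left) or LIF (right), with bars of ± 1 SE, coloured by medium and substrate, and filled where the adjusted p was under 0.05. With PD03, *Pou3f1*, *Fgf5* and *Sox3* lie between -5.83 and -3.19 and the other 3 genes between 0.09 and 1.16, and with LIF the filled points are all in serum on stiff hydrogels.

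Genes known as feedback targets of ERK mostly fell with PD03, as *Pou3f1*, *Fgf5* and *Sox3* did. Of 11 FGF receptor and feedback genes tested, 7 or 8 fell and 1 or 2 rose in each PD03 comparison. The share of all genes called there was 54.4% to 57.5%. *Spry4*, an inhibitor of receptor tyrosine kinase signalling, had a log2 fold change of -7.56 ± 0.14 on stiff hydrogels in serum, *Etv4* of -5.64 and the ERK phosphatase *Dusp6* of -3.14, while the receptor *Fgfr1* rose by 0.88. Of 19 other genes of the formative or early post-implantation epiblast, 15 or 16 fell and 3 rose in each comparison, with medians between -1.69 and -1.53 against -0.01 to 0.01 over all genes. On stiff hydrogels in serum *Lef1*, a nuclear partner of beta-catenin, changed by -5.74, *Tcf15* by -3.45 and the DNA methyltransferase *Dnmt3b* by -2.67 on the log2 scale. The genes that rose there with *Otx2* and *Foxd3* were *Tcf7l1* (1.13), a repressor of Wnt targets, *Ets2* (1.498) and *Nodal* (0.61). Of 10 naïve factors, 7 or 8 rose and *Klf5* and *Nr0b1* fell, and *Nanog* rose by 2.15 in that comparison. Markers of other lineages also shifted with PD03. The summed CPM of 5 trophoblast markers was 54.7 to 79.2 without and 134 to 207 with PD03, and that of 6 primitive endoderm markers 45.02 to 68.5 and 82.2 to 139.5. The latter rise was carried mainly by *Dab2*, at 24.8 ± 2.64 CPM in stiff serum libraries and 98.8 ± 3.68 with PD03, while *Sox7* was at 10.1 ± 1.12 and 2.06 ± 0.142 CPM. Of these 6 markers, 1 or 2 rose and 1 to 3 fell in each PD03 comparison. Of the 5 trophoblast markers, 3 or 4 rose and 1 fell in each. Their part in the results for the 6 genes was not tested.

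Some relatives in the gene families moved with their member and others against it (see the plot of gene families). Of 18 relatives, 14 passed the filter, and *Sox14*, *Foxd1*, *Foxd4* and *Zic4* did not. Of the 14, 4 to 6 rose and 3 or 4 fell with PD03. On soft and stiff hydrogels 10 and 8 were called in serum, and 8 and 9 in serum + LIF. Between 54.4% and 57.5% of all genes were called in these comparisons, so the counts are not particular to these relatives. The POU class III gene *Pou3f2*, encoding BRN2, rose while *Pou3f1* fell. Its level went from 0.597 ± 0.069 to 11.3 ± 0.496 CPM on stiff hydrogels in serum (n = 3 each), a log2 fold change of 4.24 ± 0.24 (edgeR adjusted p = 5.60e-21), and the 4 changes lay between 3.73 and 4.24. *Pou3f3* rose in the 4 comparisons too, by 1.38 ± 0.29 on stiff and 1.73 ± 0.26 on soft hydrogels in serum. *Pou3f4* was not called in any of them.

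In the FGF family, *Fgf15* and *Fgf17* fell with *Fgf5*, with log2 fold changes of -2.75 ± 0.18 and -2.42 ± 0.14 on stiff hydrogels in serum. *Fgf4*, the ligand that mESCs themselves secrete, rose by 1.15 in that comparison and by 1.10 to 1.34 in the 4. Among SOX genes, *Sox2* changed by 0.02 to 0.21, *Sox1* changed by -0.37 on stiff hydrogels in serum, and *Sox21* rose by 1.97 there. Among ZIC genes, *Zic5* changed by -0.28 on stiff hydrogels in serum, whereas *Zic2* did not fall. Reads of near-identical family members could be misassigned in principle, as the handling of reads matching several places was not stated.

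**Figure D3:**
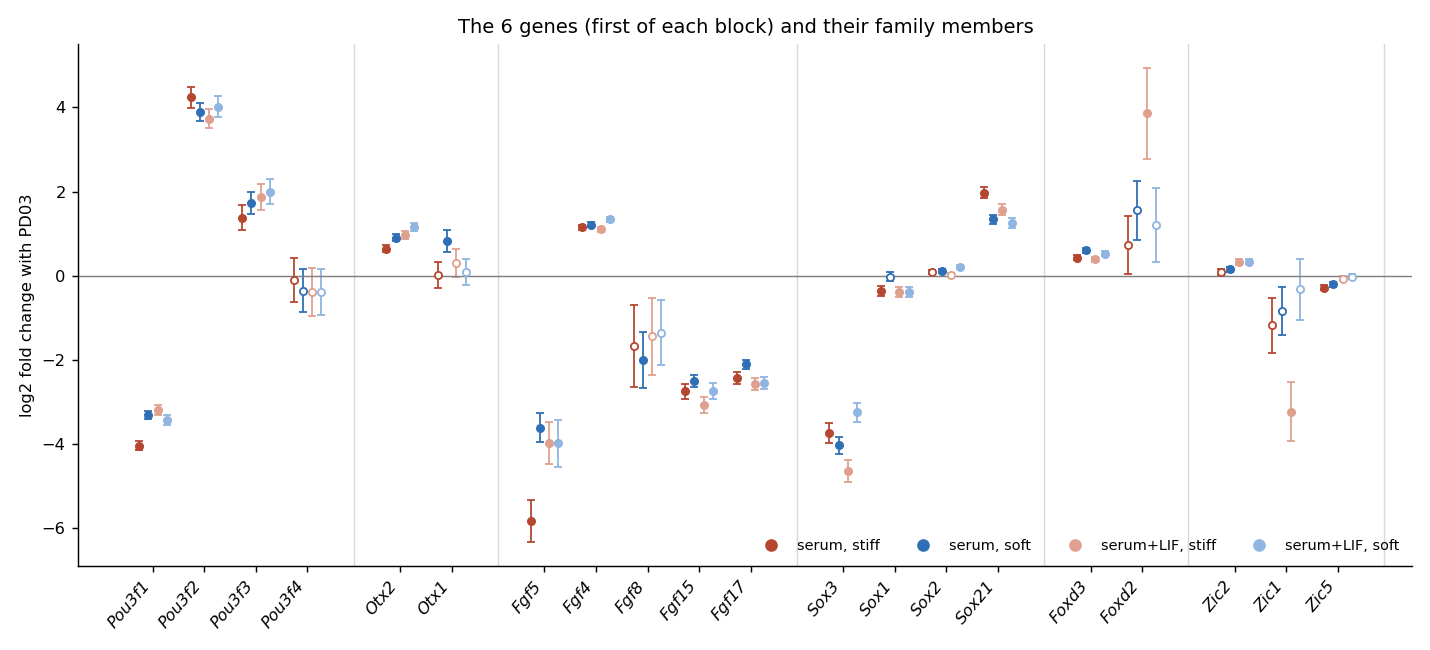
Log2 fold change with PD03 (vertical axis, ± 1 SE) of each of the 6 genes, placed first in its block, and of the tested members of its family, in 4 comparisons shown by colour, filled where the adjusted p was under 0.05. *Pou3f2* and *Pou3f3* lie above 0 beside *Pou3f1* below it, and *Fgf4* above 0 beside *Fgf5*, *Fgf15* and *Fgf17* below it.

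Promoter sequences were available for *Fgf5*, which fell, and for *Foxd3* and *Otx2*, which rose. They are shown to set side by side the upstream bases of genes that moved in opposite directions under PD03. Each window is the 250 bases before a RefSeq start on GRCm38.p6, on the strand of the gene, at chr5:98253934-98254183 for *Fgf5*, chr4:99656049-99656298 for *Foxd3* and chr14:48667645-48667894 for the most upstream of 4 *Otx2* starts. Capitals mark matches, on either strand, to the ETS core GGAAG, the SOX site ACAAAG, the OTX site TAATCC, the octamer ATGCAAAT and the TATA box TATAAA.
Fgf5: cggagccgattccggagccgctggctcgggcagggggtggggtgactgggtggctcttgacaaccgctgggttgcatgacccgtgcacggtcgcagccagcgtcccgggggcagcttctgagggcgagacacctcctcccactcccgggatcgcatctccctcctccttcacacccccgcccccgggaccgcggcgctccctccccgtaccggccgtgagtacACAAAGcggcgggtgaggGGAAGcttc
Foxd3: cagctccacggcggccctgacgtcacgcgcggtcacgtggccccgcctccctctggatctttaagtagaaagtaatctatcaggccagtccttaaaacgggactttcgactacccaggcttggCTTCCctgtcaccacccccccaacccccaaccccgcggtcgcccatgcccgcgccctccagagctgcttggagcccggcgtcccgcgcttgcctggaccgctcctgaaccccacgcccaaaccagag
Otx2: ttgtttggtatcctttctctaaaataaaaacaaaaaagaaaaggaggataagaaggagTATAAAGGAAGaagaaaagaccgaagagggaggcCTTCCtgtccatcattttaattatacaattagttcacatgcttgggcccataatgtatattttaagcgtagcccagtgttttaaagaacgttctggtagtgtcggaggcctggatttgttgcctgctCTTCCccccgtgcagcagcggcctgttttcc
The *Fgf5* window held a SOX site 27 and an ETS core 9 bases before the start, and the *Foxd3* window 1 ETS core 127 bases before it. The *Otx2* window held 3 ETS cores and a TATA box, the TATA box ending next to the first core. An ETS core is common, as 64.07% of 32851 such windows in the mouse held at least 1. The SOX site was in 16.46% of windows, the TATA box in 12.37%, the OTX site in 6.25% and the octamer in 1.60%. The windows of *Fgf5* and *Foxd3* were rich in G and C, at 70.8% and 65.6%, and that of *Otx2* held 42.0%, against a median of 52.4%. The windows of the other 3 *Otx2* starts held 49.2%, 48.4% and 53.6% and no TATA box, and 1 of them held an OTX site. A match describes letters and not a bound site.

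LIF was next added to serum to ask how the cytokine moved these genes on each substrate. On stiff hydrogels 4 of 6 genes were called, all lower with LIF, where 1.41% of all genes were called. *Pou3f1* was at 82.5, 84.5 and 76.2 CPM in serum and at 47.9, 48.0 and 45.5 in serum + LIF, a log2 fold change of -0.79 ± 0.09 (edgeR adjusted p = 1.35e-08). *Otx2* changed by -0.63 ± 0.10 (edgeR adjusted p = 5.07e-05), from 28.9, 26.1 and 24.2 CPM to 18.2, 17.4 and 16.1. The groups did not overlap for either gene. *Fgf5* changed by -1.32 ± 0.31 (edgeR adjusted p = 0.0128), from 4.15, 4.37 and 4.81 CPM to 1.07, 2.16 and 2.05. Its call was lost without stiff serum + LIF library 1, where the change was -1.09 and the adjusted p 0.165, and it held in 30 of the 45 pool assignments. *Zic2* changed by -0.38 ± 0.07 (edgeR adjusted p = 0.000768), from 57.2, 52.9 and 54.7 CPM to 44.1, 43.6 and 39.4. *Sox3* and *Foxd3* changed by -0.11 each and were not called.

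On stiff hydrogels LIF and PD03 thus each lowered *Pou3f1* and *Fgf5*, whereas *Otx2* was lower with LIF and higher with PD03. *Zic2* was also lower with LIF there, and higher with PD03 in serum + LIF. Of the 19 other formative genes, 8 fell and none rose with LIF in that comparison, among them *Pim2* (-0.65), *Lef1* (-0.53), *Sall2* (-0.48) and *Dnmt3b* (-0.41). Of the 10 naïve factors, 8 rose.

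On soft hydrogels 0 of 6 genes were called by edgeR when LIF was added to serum (background 0.0169%), with 3 at an unadjusted p under 0.05 and 0 called by DESeq2. *Pou3f1* changed by -0.20 ± 0.09, *Otx2* by -0.32 ± 0.10, *Fgf5* by -0.77 ± 0.33 and *Zic2* by -0.10 ± 0.07. The difference between substrates was tested as an interaction, for which 0.0847% of all genes were called. It was called for *Pou3f1*, at 0.58 ± 0.12 (edgeR adjusted p = 0.0375), and for none of the other 5 genes, with values from 0.17 for *Foxd3* to 0.54 for *Fgf5*. The *Pou3f1* call was lost without 9 of the 12 libraries taken 1 at a time, with adjusted p from 0.0534 to 0.188 and values from 0.54 to 0.61, and it held only without stiff serum library 3, soft serum library 3 or soft serum + LIF library 3. With pool as a term it held in 4 of 45 assignments, with values from 0.56 to 0.60.

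In the presence of PD03, adding LIF called 0 of 6 genes on soft (background 0.107%) and 0 of 6 on stiff hydrogels (0.514%) by edgeR. Unadjusted p was under 0.05 for 2 and 4 genes, and DESeq2 called 0 in both. *Otx2* changed by -0.30 ± 0.09 on stiff hydrogels, from 37.1, 43.0 and 44.3 CPM to 33.1, 34.7 and 33.2, with an edgeR adjusted p of 0.116. The interaction of LIF with PD03, averaged over both substrates, was called by edgeR for 0 of 6 genes (background 0.881%), with 3 at an unadjusted p under 0.05 and 0 by DESeq2. Its values were 0.36 ± 0.12 for *Pou3f1*, 0.29 ± 0.09 for *Otx2* and 0.21 ± 0.07 for *Zic2*.

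Soft and stiff hydrogels were then compared. With these data the paper asked whether sensitivity to stiffness depended on LIF or ERK signalling, using only the middle level of matrix tethering. At 24 h, in serum + LIF and within the first pool, 2 of 6 genes were called, against 3.55% of all genes, and in opposite directions. *Pou3f1* was lower on soft hydrogels, at 35.4, 32.04 and 33.5 CPM, than on stiff, at 48.7, 51.5 and 56.9, with a log2 fold change of -0.64 ± 0.09 and an edgeR adjusted p of 1.29e-06. *Zic2* was higher on soft hydrogels, at 54.9, 57.6 and 55.5 CPM, than on stiff, at 47.3, 42.4 and 37.1, at 0.41 ± 0.07 on the log2 scale (edgeR adjusted p = 8.45e-05). In neither did the substrates overlap, and both calls held without any 1 of the 6 libraries. *Otx2*, *Sox3* and *Foxd3* changed by -0.04 ± 0.11, -0.06 ± 0.17 and -0.02 ± 0.06. *Fgf5* changed by -0.60 ± 0.35, from 1.98, 1.72 and 1.82 CPM on stiff to 1.74, 0.618 and 1.33 on soft hydrogels, with an edgeR adjusted p of 0.452.

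Markers of other cells differed between substrates too. The summed CPM of the 5 tested fibroblast markers was 23.5 to 35.3 on soft and 49.6 to 57.0 on stiff hydrogels at 24 h, mostly from *Col1a1* (17.2 ± 4.07 and 39.4 ± 2.90 CPM). That of the 4 tested neural crest markers was 18.04 to 19.7 and 25.4 to 26.5. *Col1a2*, *Col3a1* and *Dcn* also had lower means on soft hydrogels, *Thy1* was at 7.38 and 7.71 CPM, and *Lum* had at most 5 counts in any library. Of the 5 fibroblast markers tested, 1 was called, as lower on soft hydrogels. The same held for 1 of the 4 tested neural crest markers. Their part in the results for *Pou3f1* and *Zic2* was not tested.

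At 48 h in serum, 1 gene was called, against 4.85% of all genes. *Pou3f1* was at 49.2, 44.7 and 52.0 CPM on soft and 82.5, 84.5 and 76.2 on stiff hydrogels, or -0.74 ± 0.08 on the log2 scale (edgeR adjusted p = 1.44e-08). With pool as a term, this call held in 27 of 45 assignments, with changes between -1.21 and -0.28. *Fgf5* was at 2.57, 2.11 and 2.75 CPM on soft and 4.15, 4.37 and 4.81 on stiff hydrogels, without overlap. Its change of -0.84 ± 0.29 had an edgeR adjusted p of 0.0922, and it was called by DESeq2 (0.0321) and in a fit of these groups alone (0.0149). *Zic2*, with 0.05 ± 0.07, was not called here. Of the 19 other formative genes, 7 were lower on soft hydrogels in serum and none higher, among them *Lef1* (-0.52), *Pim2* (-0.46), *Sox11* (-0.40) and *Dnmt3b* (-0.37), and 9 of the 10 naïve factors were higher. In the other strata this list had 2 higher and 2 lower at 24 h, 1 and 0 at 48 h in serum + LIF, 2 and 4 with PD03 alone, 4 and 2 with LIF and PD03 together, and 5 and 6 for the mean of the 5 strata.

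At 48 h in serum + LIF, *Zic2* alone was called (background 0.780%). It was at 54.7, 52.6 and 52.6 CPM on soft and 44.1, 43.6 and 39.4 on stiff hydrogels, or 0.34 ± 0.07 on the log2 scale (edgeR adjusted p = 0.0101). The call was lost without stiff library 3 (0.30, adjusted p = 0.132) and held in 2 of 45 pool assignments. *Pou3f1* was at 43.5, 43.4 and 39.96 CPM on soft and 47.9, 48.0 and 45.5 on stiff hydrogels, which did not overlap, but its change of -0.15 ± 0.09 was not called (edgeR adjusted p = 0.548). Without soft library 3, *Foxd3* was called as well, at 0.25 with an adjusted p of 0.0467, against 0.15 with all libraries.

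With PD03 the substrates were compared in both media. In serum + PD03, 0 of 6 genes were called by edgeR (background 5.55%), with 1 at an unadjusted p under 0.05 and 0 by DESeq2. *Pou3f1*, at its low level, changed by -0.01 ± 0.14 between substrates. In serum + LIF + PD03, 4 of 6 genes were called, all higher on soft hydrogels (background 7.61%). *Otx2* was at 41.6, 44.4 and 42.4 CPM on soft and 33.1, 34.7 and 33.2 on stiff hydrogels, a change of 0.35 ± 0.09 (edgeR adjusted p = 0.00544). *Foxd3* was at 63.5, 64.2 and 59.6 CPM against 51.4, 49.3 and 52.9, and *Zic2* at 63.9, 68.9 and 69.3 against 55.8, 51.2 and 50.9, with changes of 0.29 ± 0.06 and 0.36 ± 0.07 (edgeR adjusted p = 0.000702 and 0.000166). The groups did not overlap in any of these 3 genes. *Sox3* was at 0.923, 0.797 and 0.654 CPM on soft and 0.298, 0.246 and 0.322 on stiff hydrogels, from 47 and 19 counts, a change of 1.43 ± 0.38 (edgeR adjusted p = 0.00974).

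In that medium the *Sox3* call was lost without stiff library 2 (1.33, adjusted p = 0.0501) or soft library 1 (1.31, 0.0565) and in all 45 pool assignments. The calls of *Otx2*, *Foxd3* and *Zic2* held in 8, 15 and 26 of 45 assignments, always with a positive change. *Pou3f1* changed by -0.39 ± 0.16 (edgeR adjusted p = 0.132), and without stiff library 3 by -0.55, with an adjusted p of 0.0338. It was called in 9 of 45 pool assignments, with changes between -0.86 and 0.07. The summed fibroblast markers were at 27.05 to 40.3 CPM on soft and 83.2 to 88.5 on stiff hydrogels in this medium, and the trophoblast markers at 151 to 154 and 197 to 207. Their part in these differences was not tested.

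**Figure D4:**
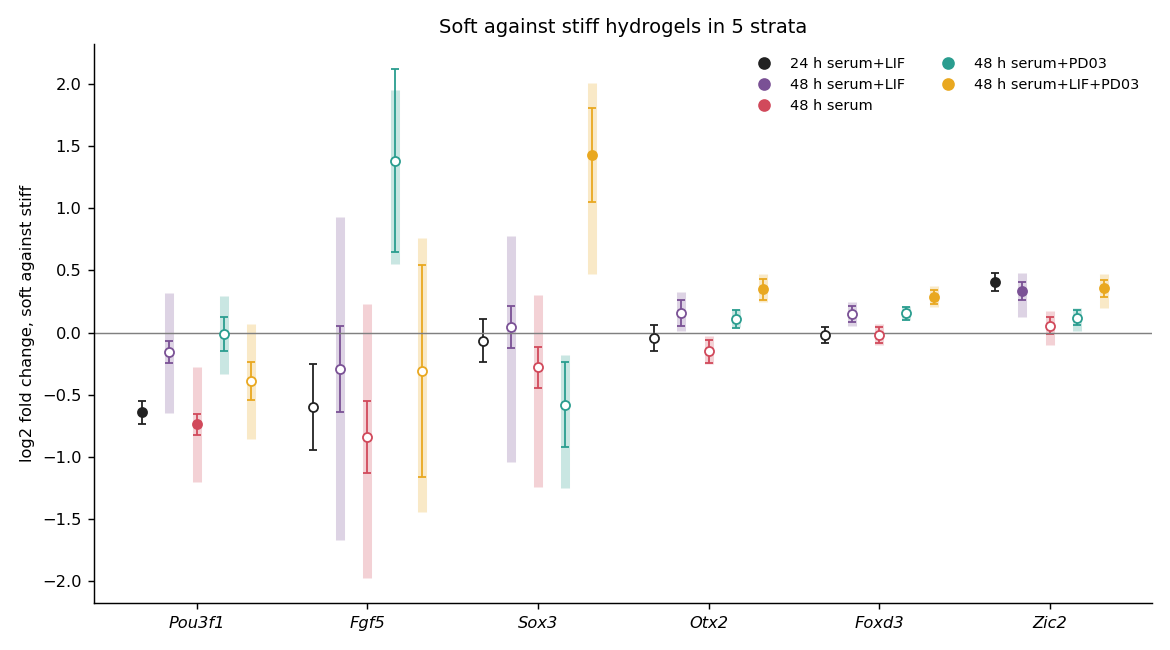
Log2 fold change of soft against stiff hydrogels (vertical axis) of the 6 genes in 5 strata of time and medium shown by colour, with bars of ± 1 SE, filled where the adjusted p was under 0.05, and with a pale band for the range over 45 assignments of the libraries to sequencing pools. *Pou3f1* lies below 0 and *Zic2* above 0 at 24 h, where all libraries shared a pool and no band is visible, while at 48 h bands are wide for some genes, as for *Pou3f1* in serum, from -1.21 to -0.28.

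Averaged over the 5 strata, 3 of 6 genes were called (background 17.1%). *Pou3f1* was lower on soft hydrogels by 0.39 on the log2 scale, a change of -0.39 ± 0.05, while *Zic2* and *Foxd3* were higher, by 0.25 ± 0.03 and 0.11 ± 0.03. The edgeR adjusted p was 6.56e-08, 3.95e-09 and 0.00249. Under the pool term these calls held in 9, 37 and 2 of 45 assignments. *Otx2*, at 0.09 ± 0.04, was called only without stiff 24 h library 3 (0.12, adjusted p = 0.0461).

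Whether the stiffness effect itself depended on PD03 was tested as an interaction. Without LIF it was called for *Pou3f1* (background 0.797%), at 0.73 ± 0.16 with an edgeR adjusted p of 0.0122, since the change between substrates was -0.74 in serum and -0.01 in serum + PD03. The call was lost without stiff serum + PD03 library 1 (0.71, adjusted p = 0.0509) or 3 (0.70, 0.054), or soft serum library 2 (0.67, 0.0601), and held in 30 of 45 pool assignments, with values from 0.55 to 0.88. *Fgf5* gave 2.22 ± 0.78 (edgeR adjusted p = 0.2), with 21 and 4 counts on soft and stiff hydrogels in serum + PD03. With LIF the interaction was called by edgeR for 0 of 6 genes (background 1.07%), with 1 at an unadjusted p under 0.05 and 0 by DESeq2. *Sox3* came nearest, at 1.39 ± 0.41 with an edgeR adjusted p of 0.101.

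Plastic was compared with both hydrogels at 48 h in serum + LIF. On soft hydrogels 3 of 6 genes were called (background 11.8%). *Pou3f1* was at 43.5, 43.4 and 39.96 CPM against 55.2, 62.5 and 56.3 on plastic, a change of -0.46 ± 0.09 (edgeR adjusted p = 0.000169). *Zic2* and *Foxd3* were higher than on plastic, by 0.43 ± 0.07 and 0.28 ± 0.07 (edgeR adjusted p = 1.26e-05 and 0.00243). *Foxd3* on plastic, at 36.1, 35.4 and 36.04 CPM, was the lowest of its 11 groups. Soft and plastic libraries shared no pool, and with pool as a term these calls held in 9, 11 and 0 of 45 assignments. On stiff hydrogels 1 gene was called (background 5.54%). *Pou3f1* was lower than on plastic, with a change of -0.30 ± 0.09 and an edgeR adjusted p of 0.0278. Without plastic library 2 or 3, or without stiff library 1, 2 or 3, its adjusted p was 0.0543 to 0.178 and its change -0.32 to -0.25. With pool as a term it was called in 0 of 45 assignments. Both hydrogel comparisons share the plastic libraries.

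Cells in serum + LIF were also compared between 48 h and 24 h. On soft hydrogels 2 of 6 genes were called (background 24.4%), both higher at 48 h. *Pou3f1* went from 35.4, 32.04 and 33.5 CPM to 43.5, 43.4 and 39.96, a change of 0.33 ± 0.09 (edgeR adjusted p = 0.00579). *Otx2* went from 17.2, 14.3 and 13.7 CPM to 19.3, 21.3 and 16.9, a change of 0.36 ± 0.11 (edgeR adjusted p = 0.00966). The *Otx2* call was lost without soft 24 h library 3 (0.31, adjusted p = 0.073) or soft 48 h library 2 (0.28, 0.0924). The 24 h and 48 h soft libraries shared no pool. Under the pool term *Pou3f1* was called in 4 of 45 assignments, ranging from -0.21 to 0.83, and *Otx2* in 0, ranging from 0.12 to 0.61. On stiff hydrogels 1 gene was called (background 25.6%): *Foxd3* changed by -0.27 ± 0.06 (edgeR adjusted p = 0.00099), from 43.9, 48.6 and 48.9 CPM to 38.0, 39.7 and 39.7, without overlap. This call held in 15 of 45 pool assignments. Without stiff 24 h library 3, *Otx2* was called there too, at 0.30 with an adjusted p of 0.0416, against 0.16. The interaction of stiffness and time was called by edgeR for 0 of 6 genes (background 0.254%), with 1 at an unadjusted p under 0.05 and 1 by DESeq2. That gene was *Pou3f1*, at 0.49 ± 0.13 with an edgeR adjusted p of 0.0867 and a DESeq2 adjusted p of 0.0325. Without soft 48 h library 3 it was called by edgeR, at 0.55 with an adjusted p of 0.0294.

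How the 6 genes varied together was described by Pearson's r of mean log2 CPM over the 7 groups without PD03, since the groups with PD03 form a cluster of their own. The points share library depth, medium and, in part, sequencing pool. *Pou3f1* and *Fgf5* had an r of 0.946, *Otx2* and *Fgf5* 0.848, *Pou3f1* and *Otx2* 0.718 and *Otx2* and *Sox3* 0.672. *Foxd3* was negative with those 4 genes, between -0.516 and -0.316, and *Foxd3* and *Zic2* had an r of 0.468. *Otx2* thus varied with *Pou3f1* and *Fgf5* among the groups without PD03, while its level was higher with PD03 and theirs lower. Over the 4 groups with PD03 alone, *Otx2* had an r of -0.452 with *Pou3f1* and 0.343 with *Fgf5*. Between libraries of the same group, r of the deviations from the group means over 36 libraries stayed between -0.289 and 0.267.

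**Figure D5:**
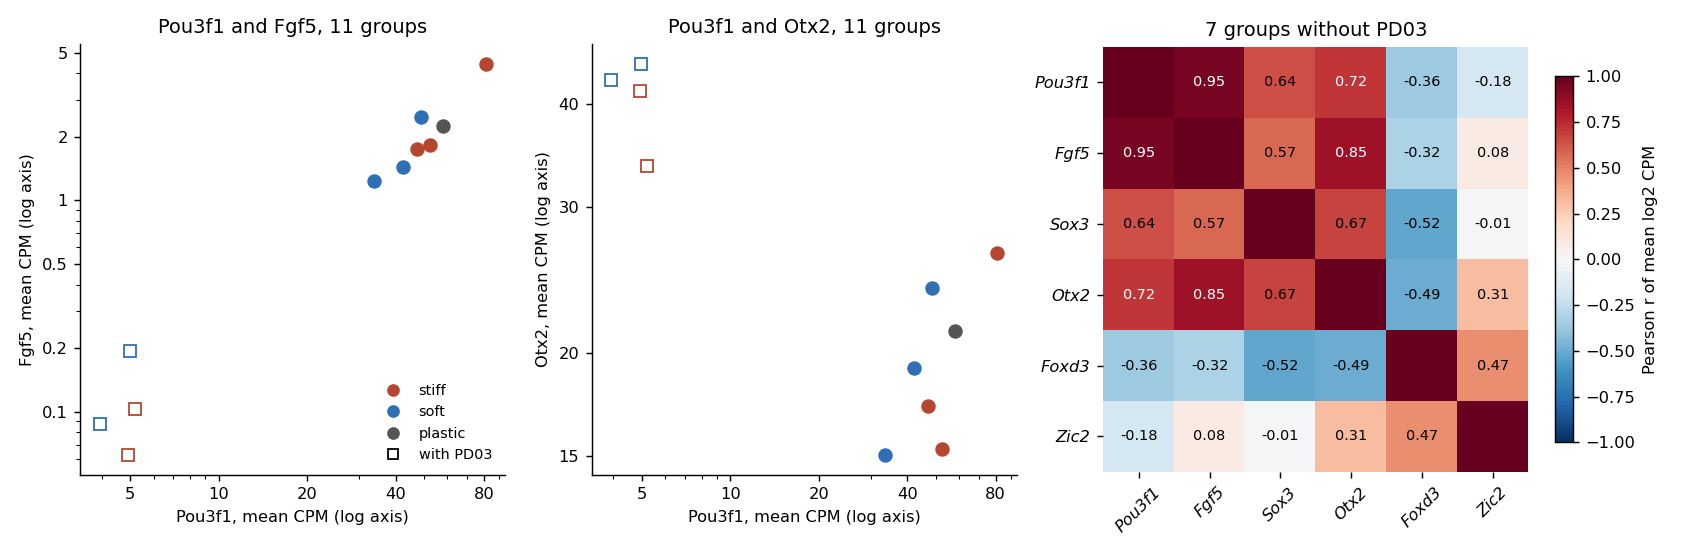
Mean CPM of *Fgf5* (left) and *Otx2* (middle) against that of *Pou3f1* in 11 groups on log axes, coloured by substrate with open squares for PD03, and Pearson's r of mean log2 CPM between the 6 genes over the 7 groups without PD03 (right, blue to red from -1 to 1). *Otx2* tends to be higher where *Pou3f1* is higher among the filled circles (r = 0.718), with exceptions such as stiff hydrogels at 24 h. The 4 open squares combine the lowest *Pou3f1* with the highest *Otx2*.

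The 3 tested genes whose mean log2 CPM over all 11 groups was most like each member were taken from the 17701 other genes. This measure follows mainly the PD03 contrast, and 2480 genes had an r above 0.9 with *Pou3f1*, 2400 with *Sox3* and 2216 with *Fgf5*, but 603 with *Otx2*, 813 with *Foxd3* and 7 with *Zic2*. Nearest to *Pou3f1* were *Bsn* (0.996), *Mfap3l* (0.995) and *Zfp275* (0.995). Nearest to *Fgf5* were *Mbd3* (0.989), *Lpcat4* (0.988) and *Pou3f1* itself (0.987), the only pairing within the 6. *Sox3* was nearest to *Gm30085* (0.997), *Tal1* (0.994) and *Flywch2* (0.993). *Otx2* was nearest to *Strn4* (0.981), *Uap1* (0.981) and *Spats2* (0.975), and *Foxd3* to *Txn1* (0.985), *Ubxn1* (0.977) and *Ephb4* (0.976). For *Zic2* they were *Galm* (0.931), *2410015M20Rik* (0.919) and *Gm12856* (0.918). Over the 7 groups without PD03, *Bsn* was again the nearest to *Pou3f1* (0.980), *Lpcat4* became the nearest to *Fgf5* (0.978) and *Gm12856* to *Zic2* (0.985), and *Txn1* was the second nearest to *Foxd3* (0.989).

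Transcripts that start close to a member on the opposite strand were weakly expressed. *Gm14662*, next to *Sox3*, had 0 to 9 counts, *2610035F20Rik*, next to *Zic2*, 2 to 22, and *Gm12688*, 1316 bases from the *Foxd3* start, 11 to 42. With PD03, *Gm12688* changed by -0.99 ± 0.30 on stiff hydrogels in serum + LIF (edgeR adjusted p = 0.00438) and by -0.62 ± 0.25 on soft hydrogels in serum (0.0297), while *Foxd3* rose in both.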

How the data were processed

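RNA was extracted from 36 mESC samples, and libraries were made with a NuGen kit per the labels and sequenced on an Illumina instrument. The authors aligned reads with STAR 2.5.2a to GRCm38/mm10 and counted them per Ensembl gene with HTSeq, and they deposited raw counts per gene without normalisation. Counting strand and the handling of reads matching several places are not given in the sources used here. Columns named a group but no replicate, so library numbers are only names in file order. The 6 genes and all gene lists were chosen with earlier results of these data known.

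The filter on low counts (filterByExpr with the 11 groups) left 17702 genes, which hold 99.92% of the counts. Libraries were scaled by TMM (factors 0.963 to 1.047) in edgeR 4.0.16 (R 4.3.3). A quasi-likelihood model with 1 coefficient per group over all 36 libraries gave 23 contrasts, adjusted over all tested genes. CPM values were computed here from the deposited counts. Alternatives were RLE size factors, no filter, DESeq2 1.42.0, fits of the compared groups alone, a pool term over the 45 assignments the labels allow, and leaving out each library. No 2 libraries of a group were duplicates, as 45 pairs gave a chi-square per gene of 2.22 to 13.4. Gene symbols were found for 49326 identifiers. The method was tested on simulated data. All 6 members were named in every comparison, list genes by membership, and 3 genes per member by likeness. A gene of the lists is not reported here and was left out of their counts.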

Additional observations from a re-analysis of the deposited data

Results flagged for a closer look

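*Pou3f1* was flagged in 2 of 30 tests of whether an effect differed between groups. The effect of stiffness on *Pou3f1* differed between serum with and without PD03 by 0.73 on the log2 scale (edgeR adjusted p = 0.0122), and the effect of LIF differed between soft and stiff hydrogels by 0.58 (edgeR adjusted p = 0.0375). Both rest on the same soft and stiff serum libraries. With pool as a term the 2 calls held in 30 and 4 of 45 assignments. Leaving out 1 library lost them in 3 of 15 and 9 of 12 fits. In the 6 libraries on soft hydrogels in serum + PD03, the only group large enough for a test of outlying samples, none of the 6 genes had an outlying library.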

How the results depend on the processing

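Of 138 gene results, 47 were past the threshold. All 47 kept their direction and call with RLE size factors, without the filter and in fits of the compared groups alone, as did the 45 that had a DESeq2 adjusted p. Without 1 library, 8 calls were lost in at least 1 fit, and with pool as a term 20 were lost in at least 1 of 45 assignments and 4 in all. Another 86 sign changes concerned values past the threshold in neither fit. Under the pool term, *Pou3f1* turned to 0.0442 in soft against plastic and to -0.21 in 48 h against 24 h on soft hydrogels. Pool assignments gave, in place of the reported counts of genes called, as few as 0 for soft against stiff in serum + LIF, serum, serum + LIF + PD03 and the mean of the 5 strata, for both hydrogels against plastic (at most 1 for soft and 0 for stiff), for time on soft (at most 1) and stiff hydrogels, and for both interactions of *Pou3f1*, and as many as 1 for stiffness by time. DESeq2 called 2 genes for soft against stiff in serum and for stiff against plastic, and 1 for stiffness by time, and gave no adjusted p for stiffness by LIF or for *Fgf5* with LIF on stiff hydrogels, where it called 3 genes. Fits of the compared groups alone gave 2, 2 and 1 for the same comparisons and 1 for LIF in PD03 on stiff hydrogels, and no filter gave 1 for stiffness by time. Leaving out 1 library gave 0 to 2 genes for soft against stiff in serum + LIF, 0 to 1 for stiff against plastic, 1 to 2 for time on both substrates, and 0 to 1 for stiffness by PD03, by LIF and by time. The causes were not tested beyond the construction of each fit. No paired analysis was possible because the columns carry no replicate numbers. Of 66 group levels, 62 moved by less than 1 SD with unscaled library sizes. Of the 15 pairs of genes, 9 had a negative r over 11 groups and 5 over the 4 with PD03. Of the 18 most alike genes, 2 were found again over 36 libraries and 4 over the 7 groups without PD03. *Fgf5* and, with PD03, *Sox3* were limited by depth.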
